A study of Danio rerio with 12 samples.

Results

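The fibrillar collagens and the interstitial matrix around them were followed through 10 genes of the adult zebrafish kidney: col1a1a, col1a1b, col1a2, col5a1, col5a2a, fn1a, postnb, dcn, lum and mmp2. The genes were chosen by symbol, from the Entrez gene IDs of the deposited files, and all 10 were found among the 30238 genes listed. Whole kidneys of wild-type fish (3 samples) were compared with kidneys of adult fish heterozygous for a pdx1 mutation, written pdx1+/- (9 samples). pdx1 encodes a homeobox factor of pancreas and beta cell development. The sources used here give no other allele, agent or treatment, and no age beyond adult, sex, family, batch or pooling. They do not say that each sample is a separate fish, so p-values measure only the spread between these samples.

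Type I collagen is the main fibre of connective tissue and is wound from alpha chains. Type V collagen is buried in the same fibrils and limits their width, and the small leucine-rich proteoglycans decorin and lumican coat their surface. Fibronectin and periostin link fibrils to cells, and gelatinases such as Mmp2 cut denatured collagen and basement membrane. In the kidney these proteins come mostly from fibroblasts, pericytes and the walls of vessels, and in fish the same organ also holds the main blood-forming tissue.

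Libraries held 17192503 to 17953311 estimated counts in the wild-type and 16041392 to 19483852 in the pdx1+/- samples. The counts of pdx1 itself (Entrez 30721) were 14, 10 and 5.6 in the wild-type samples, and 5 of the 9 pdx1+/- samples had 0. Heterozygous replicates 4, 6, 8 and 9 had 8, 6.67, 10.4 and 2. The ranges of the genotypes overlapped, and all counts were at the edge of detection. The means differed by -0.40 CPM, the count scaled to library size (two-sided exact permutation test, 220 arrangements, p = 0.0273). Leaving out wild-type replicate 1 gave an exact p of 0.109, and leaving out replicate 2 gave 0.0727. Some samples stood apart in RNA of other organs, by TPM, the count scaled to transcript length and library size. The summed level of 12 liver cell markers was 2821 TPM in heterozygous replicate 4, against 116 to 248 TPM elsewhere. The 14 exocrine pancreas and intestine markers summed to 189 TPM in heterozygous replicate 8 and 82.8 TPM in replicate 4, against 15.5 to 43.8 TPM elsewhere. Replicates 8 and 4 also had the highest pdx1 counts among the pdx1+/- samples. The part of pancreas RNA in the pdx1 counts was not tested. The level of ddc, which encodes aromatic L-amino acid decarboxylase, was 1245 to 2086 TPM in 6 samples, heterozygous replicates 1, 3, 4, 6 and 9 with wild-type replicate 2, and 33.9 to 68.3 TPM in the other 6 samples.

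RNA of 4 marker genes of fibroblasts and smooth muscle was found in every sample, which does not show which cells held the matrix RNA. The fibroblast markers pdgfra and pdgfrb, receptors for platelet-derived growth factor, ranged from 4.05 to 9.32 TPM and from 12.2 to 24.3 TPM over both genotypes. The smooth muscle genes acta2 and tagln ranged from 41.0 to 76.4 TPM and up to 91.5 TPM, and none of these 4 genes was at 0 in a sample. Of other cells that make fibrillar collagen, the summed level of 10 osteoblast and bone markers was 10.7 to 51.3 TPM. The osteoblast factor gene sp7 was at most 0.577 TPM, while the bone genes bglap, spp1 and col10a1a reached 37.5, 5.04 and 5.39 TPM. The 13 cartilage and tendon markers summed to 80.1 to 194 TPM, of which egr1, an immediate early gene of many cells, averaged 49.3 TPM. The other 12 markers of that list still summed to 51.9 to 86.4 TPM over both genotypes. Among them tnmd averaged 35.8 TPM and matn3a 14.8 TPM. In whole-organ RNA, fewer cells of a type and less RNA per cell cannot be told apart.

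The 3 chains of type I collagen were present at moderate levels that differed several-fold between kidneys of 1 genotype. The level of col1a1a, an alpha 1 chain gene, was 10.2, 3.90 and 11.7 TPM in wild-type replicates 1 to 3, and 4.81 at the lowest, 9.09 at the median and 16.9 TPM at the highest in the pdx1+/- kidneys. Its paralog col1a1b stood at 16.9, 7.38 and 14.1 TPM, against 6.03, 11.1 and 19.3 TPM at the lowest, median and highest pdx1+/- sample. Levels of col1a2, the alpha 2 chain gene, were 17.6, 8.90 and 18.9 TPM in the wild-type samples and ran from 8.88 through a median of 13.8 to 25.1 TPM in the pdx1+/- samples. For each chain wild-type replicate 2 lay well below the other 2 wild-type samples, and heterozygous replicates 5, 6 and 7 were the 3 highest pdx1+/- samples. The ranges of the genotypes overlapped for all 3 genes.

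The chains kept similar proportions while their total varied. Per TPM of col1a2, the TPM of col1a1a was 0.604 ± 0.088 and that of col1a1b 0.766 ± 0.104 (SD, n = 12 samples). The sum of col1a1a and col1a1b per col1a2 was 1.37 ± 0.10 (SD, n = 12), with a lowest value of 1.2 and a highest of 1.54. Over the same samples the type I total ranged from 20.2 to 59.2 TPM. The balance of the 2 paralogs was looser: col1a1a per col1a1b ran from 0.529 in wild-type replicate 2 to 1.22 in heterozygous replicate 2. Type I genes made up 39.0% ± 4.8 (SD, n = 12) of the summed TPM of the 10 genes.

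Type V chain genes were lower. Levels of col5a1, the alpha 1 chain gene of type V, were 7.64, 3.47 and 6.72 TPM in the wild-type samples and 3.72, 5.84 and 7.54 TPM at the lowest, median and highest pdx1+/- sample. Those of col5a2a, an alpha 2 chain gene, were 6.13, 4.25 and 5.63 TPM, against 2.74, 5.28 and 7.89 TPM. All 9 pdx1+/- levels of col5a1 lay inside the wild-type range, and both ends of the col5a2a range were pdx1+/- samples, heterozygous replicates 8 and 7. The estimated counts of col5a2a were not whole numbers in 12 of 12 samples. Those of col1a1a, col1a2, col1a1b and col5a1 were not whole in 6, 5, 3 and 2 of 12. Over all genes, 42.2% to 43.7% of the counts of a sample were not whole. Reads of these collagen genes were thus also shared out between transcripts, which may bear on the chain proportions above and the correlations below. In wild-type replicates 1 and 2, col1a1b had 1323.49 and 544.453 counts, and col1a2 had 1258.51 and 605.547. The fractions complement each other, so col1a1b and col1a2 may have shared reads, which was not tested.

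Among the glycoproteins, fn1a (fibronectin 1a) was the least abundant and the most variable gene of the 10. Its level was 0, 0.806 and 0.199 TPM in wild-type replicates 1 to 3, and 0.0674, 1.28 and 7.19 TPM at the lowest, median and highest pdx1+/- sample. In wild-type replicate 1 the count was 0, which allows up to 0.175 CPM by the floor of 3 counts (counting error only). In 6 of 9 pdx1+/- samples the level was above all wild-type samples, while heterozygous replicates 2, 5 and 8 lay inside the wild-type range. Its paralog fn1b carried most fibronectin RNA, at 12.7 to 63.5 TPM, so fn1a was 0% to 21.3% of both. The estimated count of fn1a was not a whole number in 11 of 12 samples, so reads were shared out between transcripts and its level is uncertain. The level of postnb, a periostin gene, was 4.01, 1.90 and 3.28 TPM in the wild-type samples and 1.92, 5.09 and 7.05 TPM at the lowest, median and highest pdx1+/- sample. Of the 9 pdx1+/- samples, 5 were above all wild-type samples for postnb, and the others overlapped them.

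The proteoglycan dcn (decorin) had the highest mean of the set. Its level was 26.0, 11.4 and 22.3 TPM in the wild-type samples and 13.3, 20.4 and 26.1 TPM at the lowest, median and highest pdx1+/- sample. Levels of lum (lumican), which lies next to dcn in the order of the RefSeq gene table, were 0.420, 0.922 and 2.25 TPM against 0.773, 1.98 and 4.46 TPM. The 2 neighbours did not share their lowest wild-type sample: dcn was lowest in replicate 2, and lum in replicate 1, where dcn was the highest of the 3. The protease gene mmp2 (gelatinase A) was at 17.7, 14.4 and 19.2 TPM in the wild-type samples and 13.3, 17.3 and 20.0 TPM in the pdx1+/- samples. It was the steadiest of the 10, with a highest level 1.5 times the lowest over all samples.

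**Figure D1:**
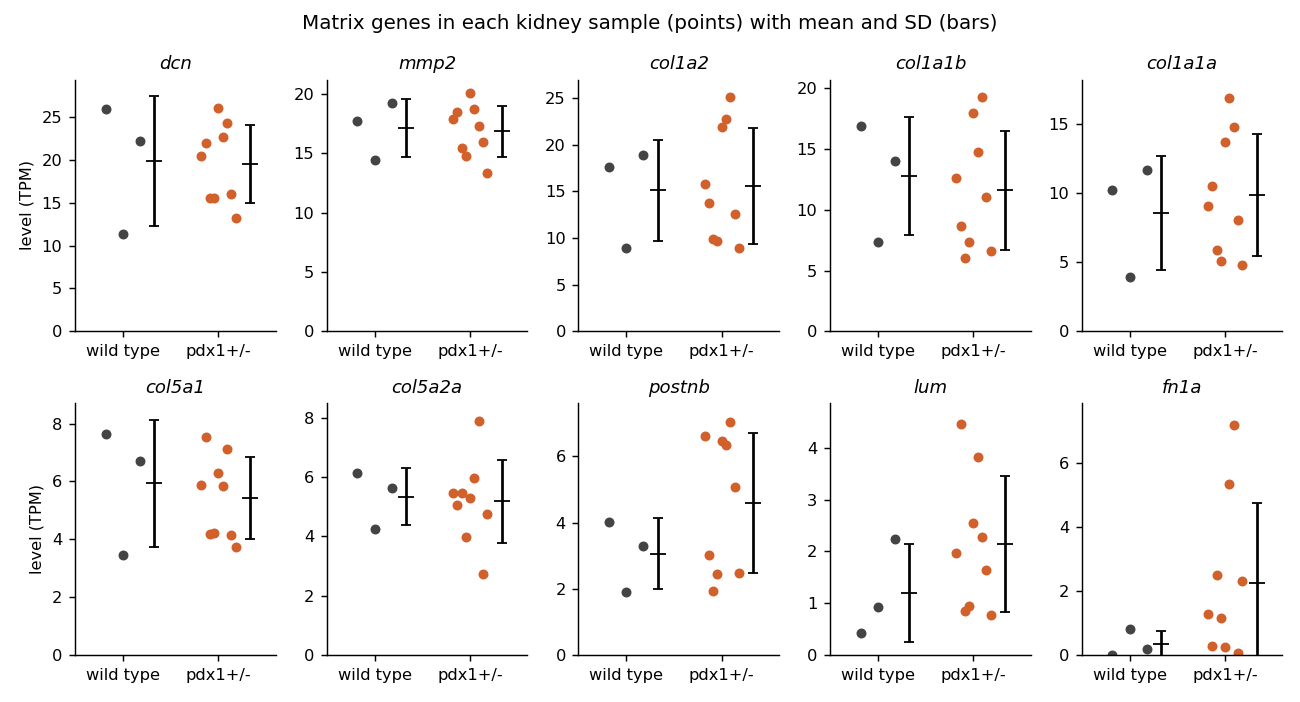
Level of each of the 10 genes in TPM (vertical axes, each from 0) in the 3 wild-type (grey) and 9 pdx1+/- (orange) kidney samples; points are samples, and bars give the mean and SD, which stop at 0 for fn1a. In every panel the points of the genotypes overlap, and mmp2 varies least.

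In the order of mean TPM over 12 samples, dcn (19.6) was followed by mmp2 (16.9), col1a2 (15.5), col1a1b (11.9), col1a1a (9.56), col5a1 (5.56), col5a2a (5.21), postnb (4.22), lum (1.91) and fn1a (1.78). These levels are per length, so the genes may be set beside each other. The ranges of all neighbours in this order overlapped. Sample by sample, col1a2 was above col1a1b, and col1a1a above col5a1, in 12 of 12 samples. The neighbours closest in mean changed places between samples: col5a1 was above col5a2a in 7 of 12, and lum above fn1a in 7 of 12.

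The question of the design is whether the genotype changes these levels, and for none of the 10 genes did the difference pass the test. By the edgeR quasi-likelihood test with Benjamini-Hochberg adjustment over 23732 genes, 0 of 10 passed an adjusted p of 0.05, in a comparison that called 0.00421% of all genes tested. None had an unadjusted p under 0.05 in edgeR, against 5.68% of all genes, and the adjusted test called 0 of 10 in DESeq2 and in limma-voom as well. By adjusted p, DESeq2 called 0.261% of all genes. Its unadjusted p was under 0.05 for 1 of the 10, and the share of all genes at that unadjusted threshold was not counted for DESeq2. Fitted log2 fold changes (pdx1+/- over wild type) were above 0 for 7 and below 0 for 3 of the 10, where 51.7% of all genes were above 0. Their median was 0.05, beside 0.01 for all genes. The log2 CPM ranges of the genotypes were apart for 0 of 10, and for 1.4% of all genes.

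The precision of this comparison differed widely among the genes. For mmp2 the log2 fold change was 0.02 ± 0.13 (SE), with a 95% interval of -0.25 to 0.29. For dcn it was 0.01 ± 0.25, for col5a2a -0.01 ± 0.23 and for col5a1 -0.10 ± 0.26. These 4 were the most tightly measured, and the intervals of dcn, col5a2a and col5a1 reached from -0.65 to 0.54 at most. The type I genes gave 0.23 ± 0.42 for col1a1a, with an interval of -0.68 to 1.13, then -0.09 ± 0.37 for col1a1b and 0.08 ± 0.34 for col1a2. In all 7 the adjusted p of edgeR was 0.999 or above, and the sign of each turned in at least 1 alternative fit.

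The 3 largest differences were those of fn1a, lum and postnb, all higher on average in pdx1+/- kidneys and none past the test. For fn1a the log2 fold change was 2.87 ± 1.45 (95% interval -0.31 to 6.04; edgeR adjusted p = 0.908). For lum it was 0.89 ± 0.59 (-0.38 to 2.16; edgeR adjusted p = 0.947), and for postnb 0.63 ± 0.43 (-0.31 to 1.56; edgeR adjusted p = 0.947). All 3 values depended on single wild-type samples. For fn1a, leaving out wild-type replicate 2 gave 4.57 and leaving out replicate 1 gave 2.29, and on log2(TPM + 1) it was 0.99. For lum, leaving out wild-type replicate 3 gave 1.69 and leaving out replicate 1 gave 0.51, and on log2(TPM + 1) it was 0.50. For postnb, leaving out wild-type replicate 2 gave 0.38, and on log2(TPM + 1) it was 0.40. The replicate number as a block, which in effect compares only heterozygous replicates 1 to 3 with wild type, gave 0.22 for postnb.

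**Figure D2:**
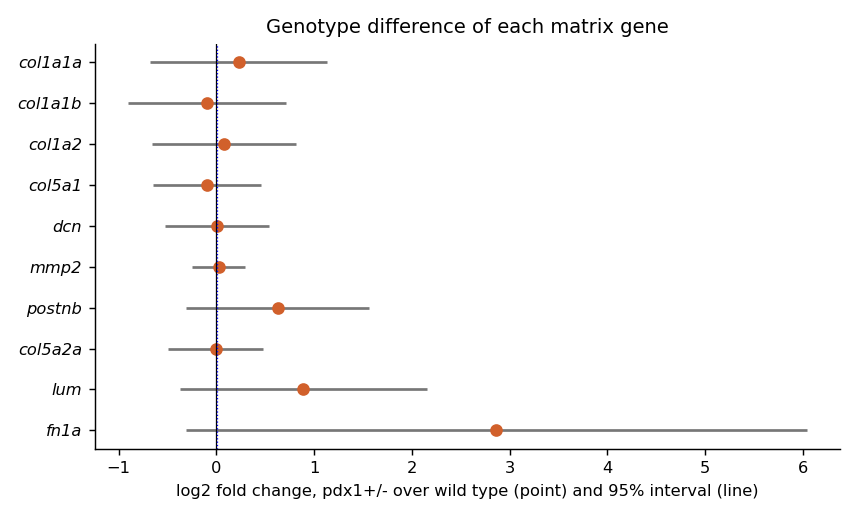
Log2 fold change of each of the 10 genes, pdx1+/- over wild type (horizontal axis; points) with 95% intervals (lines) from the edgeR fit; the solid vertical line is 0 and the dotted line, almost on it, is the median of all genes. Every interval includes 0, from the narrowest (mmp2, -0.25 to 0.29) to the widest (fn1a, -0.31 to 6.04).

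Other genes of matrix assembly and turnover were compared in the same fit, and 0 passed in each of 7 lists. Among 9 tested genes for other fibrillar chains the median log2 fold change was 0.06, with 7 above and 2 below 0. The smallest p belonged to col27a1b, a type XXVII chain gene, which stood at 18.8 ± 2.8 CPM in the 3 wild-type and 20.8 ± 4.1 CPM in the 9 pdx1+/- samples (mean ± SD here and below; edgeR adjusted p = 0.990). Of 13 fibril-associated and beaded collagen genes 7 were above and 6 below 0, including col6a2, a type VI chain gene, at 77.3 ± 21.4 against 60.6 ± 12.7 CPM, and col12a1a, a type XII chain gene, at 9.89 ± 4.69 against 13.9 ± 3.7 CPM. The adjusted p of edgeR was 0.931 for col6a2 and 0.947 for col12a1a.

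Of 35 genes for collagen folding, processing and cross-linking, 16 were above and 19 below 0. Only 1 of the 35 had an unadjusted edgeR p under 0.05, where 5.68% of all genes did. This was the lysyl hydroxylase gene plod3 (unadjusted p = 0.0486, edgeR adjusted p = 0.873), at 20.9 ± 1.9 CPM in pdx1+/- against 17.9 ± 0.3 CPM in wild-type samples. The procollagen N-proteinase gene adamts2a was at 29.4 ± 8.3 CPM in wild-type and 22.6 ± 4.8 CPM in pdx1+/- samples (edgeR adjusted p = 0.910). Interstitial glycoprotein and proteoglycan genes divided into 25 above and 26 below 0. Among them postna, the paralog of postnb, was at 20.2 ± 3.5 against 26.1 ± 5.9 CPM (edgeR adjusted p = 0.910).

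Of 28 protease and inhibitor genes, 18 were above and 10 below 0, with a median of 0.12. The cysteine protease gene ctsk (cathepsin K) stood at 77.0 ± 2.0 CPM in wild-type and 104.7 ± 16.7 CPM in pdx1+/- samples, a log2 fold change of 0.44 ± 0.14 with an unadjusted p of 0.00779 and an edgeR adjusted p of 0.727. The plasminogen activator gene plat stood at 11.3 ± 3.1 and 17.7 ± 4.4 CPM, a log2 fold change of 0.64 ± 0.23 (edgeR adjusted p = 0.794). Neither passed the threshold. Matrix receptor genes divided evenly, 12 above and 12 below 0, and the collagen receptor kinase gene ddr2a was at 52.9 ± 9.8 against 39.0 ± 9.2 CPM (edgeR adjusted p = 0.847). Of 25 genes of TGF-beta signalling, 11 were above and 14 below 0, and tgfb1b, a ligand gene, was at 83.8 ± 19.9 against 70.9 ± 12.6 CPM (edgeR adjusted p = 0.947).

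Levels varied between kidneys of 1 genotype. The SD of log2 CPM among the 9 pdx1+/- samples was 0.65 for col1a1a, 0.61 for col1a1b, 0.55 for col1a2 and 0.74 for postnb. The median gene had an SD of 0.33. Counting error at the mean count would give an SD of 0.04 to 0.10 for these 4 genes. The genes dcn (0.32), col5a1 (0.36) and col5a2a (0.39) lay near the median gene, and mmp2 (0.16) was below it, with 12.3% of genes steadier. The values for lum (0.85) and fn1a (2.16) were the highest, and 98.9% of genes had a smaller SD than fn1a. Among the wild-type samples the SD was 0.68 for dcn, 0.66 for col5a1, 0.33 for col5a2a and 0.24 for mmp2. There the median gene had an SD of 0.27, so dcn and col5a1 were not near it.

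Many of the 10 genes varied together from kidney to kidney. Over 12 samples the 45 pairs of the 10 genes had a median Pearson r of 0.60 for log2 CPM, and 20 pairs (44.4%) had r of at least 0.7, where 1.53% of all gene pairs did and the median of all gene pairs was -0.0018. By permutation with 100000 resamples, 21 of the 45 pairs passed a Benjamini-Hochberg adjusted p of 0.05 with Pearson's r and 26 with Spearman's rho. All 21 kept an unadjusted permutation p under 0.05, and r of at least 0.648, when the 2 samples farthest from the median of the first gene were left out. Within the 9 pdx1+/- samples alone the median r was 0.75, and 25 pairs passed the adjusted exact permutation test. Of the 21 pairs that passed over 12 samples, 19 passed within the 9. The exceptions were col1a1b with col5a1 (r = 0.669, adjusted exact permutation p = 0.0934) and col5a1 with col5a2a (r = 0.553, adjusted exact permutation p = 0.182).

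The type I chains were the closest pair of all. For col1a1a and col1a2, r was 0.964 and rho 0.958 (adjusted permutation p = 0.0001125 and 0.0003), and r was 0.953 without the 2 farthest samples. For col1a1b and col1a2, r was 0.947 and rho 0.965 (adjusted permutation p = 0.0001125 and 0.000225). Among 23731 other genes col1a2 was the closest to both col1a1a and col1a1b. For col1a1a and col1a1b themselves r was 0.861 and rho 0.881 (adjusted permutation p = 0.00192 and 0.00205).

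The proteoglycan gene dcn followed type V and the protease. Its r with col5a1 was 0.947 and rho 0.958 (adjusted permutation p = 0.0001125 and 0.000225), and with mmp2 r was 0.937 and rho 0.923 (adjusted permutation p = 0.0001125 and 0.0003375). The raw p behind the value 0.0001125 was 1e-05, the smallest that 100000 resamples can give. Although mmp2 varied little, its small deviations ran with those of dcn and the type I genes, at r of 0.887 and rho of 0.797 with col1a1a (adjusted permutation p = 0.0009 and 0.00792). The gene postnb ran with col1a1b (r = 0.869, rho = 0.909, adjusted permutation p = 0.0024 and 0.00108) and its relation with col5a1 did not pass (r = 0.594, rho = 0.601, adjusted permutation p = 0.0791 and 0.0650).

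**Figure D3:**
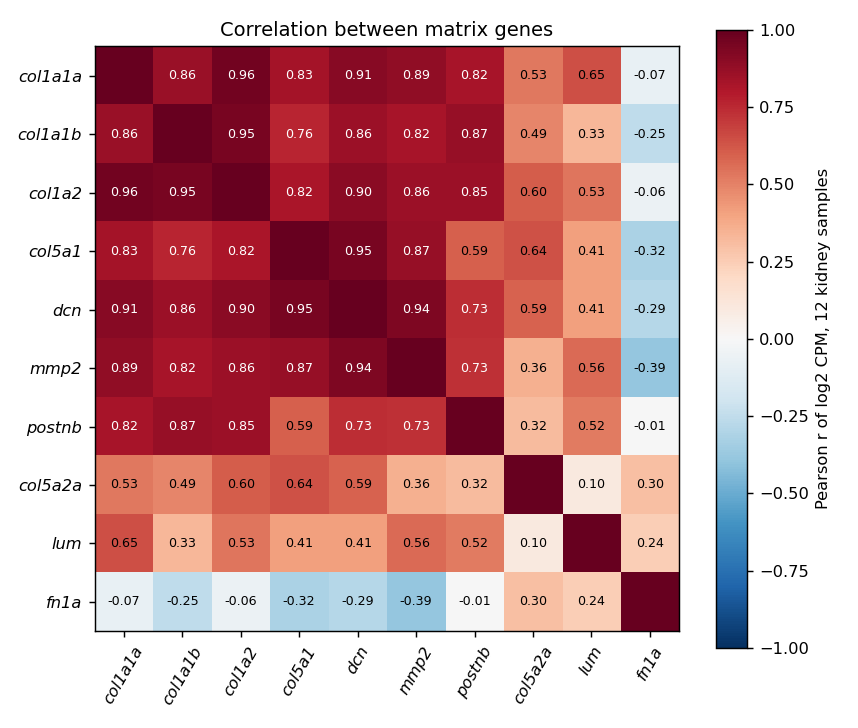
Pearson r of log2 CPM between each pair of the 10 genes over 12 kidney samples (colour and printed value, from -1 to 1). The upper left block of 7 genes (col1a1a, col1a1b, col1a2, col5a1, dcn, mmp2, postnb) holds values from 0.59 to 0.96, while the row of fn1a runs from -0.39 to 0.30.

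Described after its values were seen, a block of 7 genes (col1a1a, col1a1b, col1a2, col5a1, dcn, mmp2 and postnb) held 20 of the 20 pairs with r of at least 0.7. Its 21 pairs had a median r of 0.86 and a lowest of 0.59. The remaining 3 genes were col5a2a, lum and fn1a. The type V gene col5a2a had a median r of 0.49 with the other 9, and 1 pair, with col5a1 (r = 0.637, rho = 0.706, adjusted permutation p = 0.0437 and 0.0244), passed the test. With rho, 5 of its 9 pairs passed. In heterozygous replicate 8 its deviation from its mean was -0.79 log2 units, in a sample where that of dcn was -0.15 and that of postnb 0.50.

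The deviations of lum departed from those of other genes in more than 1 sample. In heterozygous replicate 2 lum was 1.47 log2 units above its mean, where dcn deviated by 0.20 and col1a1b by -0.35. In wild-type replicate 1 lum had only 11 counts. There the deviation of lum from its mean was -1.69 log2 units, while dcn was 0.49 and col1a1b 0.65 above theirs. Over 12 samples lum had a median r of 0.41 with the other 9 genes, and 0 of 9 pairs passed with Pearson's r and 2 with rho. In the 9 pdx1+/- samples alone its median r was 0.74, and 5 of 9 pairs passed the adjusted exact permutation test. The r of lum and dcn was 0.41 over 12 samples and 0.81 over the 9.

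No relation of fn1a with another of the 10 genes was detected over 12 samples. Its 9 pairs had r between -0.39 and 0.30, with a median of -0.07, and 0 passed by either coefficient. In the 9 pdx1+/- samples alone 1 of the 9 pairs passed, that with col5a2a (r = 0.747, adjusted exact permutation p = 0.0313), while the median of the 9 was -0.03. Its highest samples were heterozygous replicate 7, at 3.56 log2 units above its mean, and replicate 6, at 2.95, both of which were also high in type I collagen. It was 1.95 and 1.91 above its mean in heterozygous replicates 3 and 9, where the type I genes deviated by -0.60 to -0.90. In heterozygous replicates 5 and 8 the deviation of fn1a was -1.3 and -2.94.

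**Figure D4:**
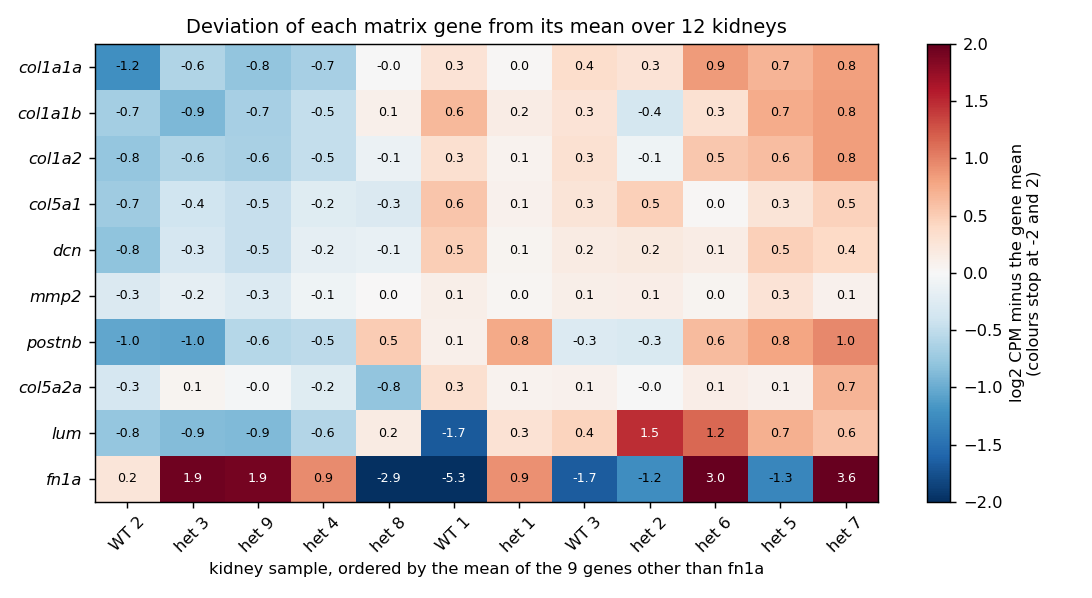
Deviation of log2 CPM from each gene's mean over 12 kidneys (colour, stopped at -2 and 2, with the value printed) for the 10 genes (vertical axis) in each sample (horizontal axis), ordered by the mean of the 9 genes other than fn1a. WT is wild type and het is pdx1+/-; wild-type replicate 2 is lowest at -0.74 and heterozygous replicate 7 highest at 0.63, and fn1a does not follow this order.

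Summarised as the mean deviation of the 9 genes other than fn1a, the kidneys ran from -0.74 log2 units in wild-type replicate 2, through -0.54 and -0.53 in heterozygous replicates 3 and 9, to 0.51 in heterozygous replicate 5 and 0.63 in heterozygous replicate 7. Wild-type replicates 1 and 3 lay between, at 0.13 and 0.19. The summed TPM of the 10 genes was 57.3 in wild-type replicate 2 and 132 in heterozygous replicate 7.

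This order ran partly with the level of ddc. Of the 6 samples with much ddc, 4 had the lowest means of the 9 genes (heterozygous replicates 3, 4 and 9 and wild-type replicate 2), and the other 2, heterozygous replicates 1 and 6, were at 0.17 and 0.43. Median levels in the samples with much and with little ddc were 9.78 and 18.2 TPM for col1a2, 15.6 and 23.3 TPM for dcn, and 15.1 and 18.1 TPM for mmp2. For fn1a the medians lay the other way, at 1.80 TPM with much and 0.222 TPM with little ddc. Ranges overlapped between the sides for all 10 genes, and no difference between the sides was tested. Within the 6 samples with much ddc the median r of the 45 pairs was 0.86, and within the 6 with little ddc it was 0.48. The p-values within the sides are unadjusted, and the pairs given were picked with their values in view. With 6 samples, a p above 0.05 does not show that a pair is unrelated. For col1a1a and col1a2, r was 0.982 and 0.936 within the sides (exact permutation p = 0.00417 and 0.0139). For dcn and mmp2, r was 0.959 with much ddc (exact permutation p = 0.00139) and 0.681 with little ddc (exact permutation p = 0.157). With little ddc, r was low for some pairs of the block of genes above. There r was -0.21 for col5a1 and postnb (exact permutation p = 0.767) and 0.22 for col1a1b and col5a1 (exact permutation p = 0.679). It was 0.813 for col5a1 and dcn (exact permutation p = 0.0458). For fn1a the sides and the pooled samples gave different values. Its r with col1a2 was -0.06 over 12 samples but 0.569 with much and 0.591 with little ddc (exact permutation p = 0.263 and 0.207), and with col1a1a it was -0.07 over 12 but 0.703 and 0.730 (exact permutation p = 0.108 and 0.1). Within the sides its r with the other genes lay between 0.02 and 0.79, and the lowest exact permutation p, unadjusted, was 0.0667. The part of ddc, or of what differs with it, in the shared variation was not tested.

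**Figure D5:**
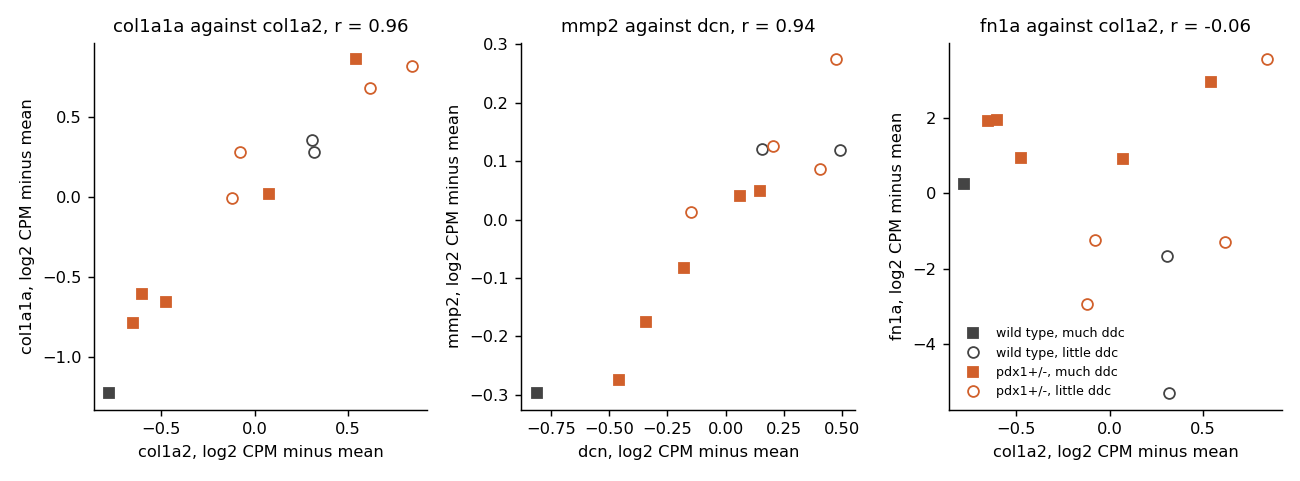
Log2 CPM deviations from the mean in 12 kidney samples for col1a1a against col1a2, mmp2 against dcn, and fn1a against col1a2 (axes in log2 units); squares are samples with much ddc and circles those with little, grey wild type and orange pdx1+/-. The first 2 panels rise along a line (r of 0.96 and 0.94), and the third does not over 12 samples (r of -0.06), with r of 0.57 among the squares and 0.59 among the circles.

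Some markers of the likely source cells ran with the matrix genes, as did some of other cells. This is described by Pearson r over 12 samples that share their libraries. Of 17 tested fibroblast and mesenchymal markers, 2 had r of at least 0.7 with the mean of the 9 genes other than fn1a: twist1a (0.75) and prrx1a (0.73), both mesenchymal transcription factors. Of 17 smooth muscle and pericyte markers it was 1, tagln (0.79). Of all tested genes other than the members, 0.607% reached that r. The median r was 0.30 in both lists, and it was alike for bone (0.31), blood (0.28) and skeletal muscle markers (0.39). The lowest values were -0.32 (nkx3-2, fibroblast list) and -0.25 (rgs5a, smooth muscle list). Other markers named above gave 0.48 (pdgfra), 0.17 (pdgfrb) and -0.001 (acta2), and twist1b, the paralog of twist1a, gave -0.07. The log2 summed level of the fibroblast list had r of 0.34 with the mean of the 9 genes, and that of the smooth muscle list 0.38. The summed level of all 21 fibroblast markers was 1349 to 1827 TPM in wild-type and 1059 to 1752 TPM in pdx1+/- samples, and no marker of the list was at 0 in all samples. The chemokine gene cxcl12a, with a mean of 1306 TPM, made up most of that sum, and the other 20 markers summed to 86.5 to 115 TPM in wild-type and 80.2 to 116 TPM in pdx1+/- samples. The highest smooth muscle sum, 523 TPM, was in heterozygous replicate 2, where lum was also highest.

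Among skeletal muscle markers 3 of 15 tested reached r of 0.7: pvalb1 (0.77), ckmb (0.73) and ckma (0.71). The share was 0.607% over all tested genes other than the members. The median of the 15 was 0.39, and the lowest were acta1b and mylpfb, both at -0.32. The summed level of the 18 muscle markers was 30.6 to 54.5 TPM in wild-type and 14 to 106 TPM in pdx1+/- samples, highest in heterozygous replicate 5 and lowest in heterozygous replicate 9. Of its 18 markers 1 was at 0 in all samples, and the 4 defining markers were at 0 in none. Of 16 nephron markers 0 reached r of 0.7, with a median of -0.36, and their sum was 2096 to 2912 TPM in wild-type and 1911 to 3074 TPM in pdx1+/- samples. For bone, cartilage, skin, endothelial, macrophage, thrombocyte, blood, exocrine pancreas, gonad and liver cell markers the number was 0 as well. The log2 summed level had r with the mean of the 9 genes of 0.55 for skeletal muscle, 0.49 for bone, 0.42 for blood and -0.38 for nephron markers. The part of these cell types in the result was not tested. Without heterozygous replicates 4 and 8, which held the liver and pancreas RNA, the median r of the 45 pairs was 0.72.

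Other matrix genes were set against the same mean of 9 genes, with which 0.607% of genes at large (144 of 23722) had r of at least 0.7. The number was 4 of 13 for fibril-associated and beaded collagens, namely col16a1 (0.82), col6a1 (0.80), col12a1a (0.77) and col6a3 (0.75). It was 6 of 51 for glycoproteins and proteoglycans, among them fbn2b (0.84), a fibrillin of microfibrils, and vcanb (0.80), a versican. Of 35 folding and cross-linking genes it was 3: plod2 (0.76), a lysyl hydroxylase of collagen telopeptides, fkbp10b (0.74), a procollagen chaperone, and sparc (0.71), a collagen-binding protein. For TGF-beta signalling it was 2 of 25, ltbp1 (0.75), which stores the latent ligand in the matrix, and tgfbr3 (0.72), a co-receptor. It was 1 of 9 for other fibrillar chains, 1 of 28 for proteases and 0 of 24 for receptors. The median r of these lists ran from 0.01 for receptors to 0.41 for glycoproteins and proteoglycans, beside 0.0016 for genes at large. Each of the lists with more than 1 gene named here also held genes with negative r. Among these were pcolce2a (-0.50), vtna (-0.49), fkbp10a (-0.39), smad3a (-0.33) and col9a2 (-0.30). These numbers are descriptions without a test.

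By the rule for named genes, the 10 genes most alike to the mean of all 10 members over 12 samples were ftr50 (r = 0.92), pmp22a (0.88), fam217ba (0.88), crabp2a (0.85), cenpv (0.83), ccr6b (0.83), cd34 (0.80), col6a3 (0.79), thap4 (0.79) and thbs2a (0.78). Those most opposite were rfk (-0.86), slc27a1a (-0.84), slc52a3-1 (-0.83), rap1ab (-0.83) and mtfmt (-0.83). Because fn1a varied most, it weighed most in that mean: the r of ftr50 was 0.67 against the mean without fn1a. With fn1a left out, a choice made after the values were seen, the closest genes were serpinf1 (0.98), which encodes pigment epithelium-derived factor, cd34 (0.94), a surface sialomucin of vascular and stromal cells, adamts15b (0.87), a metalloprotease, and kirrel1a (0.85), a relative of nephrin. The levels of serpinf1 and cd34 averaged 7.40 and 50.9 TPM.

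Single members had different neighbours. The closest gene to mmp2 was serpinf1 (0.95), and that to col5a1 was fndc3ba (0.96), followed by tgfbr3 (0.95) and dcn (0.95). The 5 genes closest to fn1a were etnppl (0.93), drc3 (0.90), armc3 (0.90), camk1da (0.90) and arl13b (0.89). Of these drc3 encodes a part of the dynein regulatory complex of motile cilia, and arl13b a GTPase of the ciliary membrane. No member of the set was among them. For lum the closest was fkbp7 (0.88), a prolyl isomerase of the endoplasmic reticulum.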

How the data were processed

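Total RNA of 12 kidney samples was sequenced on the BGISeq-500 system, per the labels' protocols. Per the submitters' processing notes, Trim Galore 0.6.4 trimmed the reads, and kallisto (version given as 0.4.6) quantified them on GRCz11. The sources used here do not say how transcripts were summed to genes. Values deposited by the authors were estimated counts that are not normalized and TPM, which they scaled for length and library size. A RefSeq table of assembly GRCz12tu named 25812 of 30238 IDs and was used for names and gene order only.

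Counts were rounded to whole numbers. In R 4.3.3, genes passing filterByExpr (minimum count 10) were scaled by TMM and tested with the quasi-likelihood F test of edgeR 4.0.16 (robust, no covariate), with Benjamini-Hochberg adjustment over 23732 genes at 0.05. A standard error is the log2 fold change over the root of F. Log2 CPM used a prior count of 2. Pairs of genes were tested by permutation (100000 resamples, or exact for 9 or 6 samples), adjusted over 45 pairs. The p-values within the sides by ddc, and those without the 2 farthest samples, were not adjusted. Alternatives used DESeq2 1.42.0, limma 3.58.1, sva 3.50.0, other scalings and filters, and each sample left out. The fit was first tested on simulated counts.

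The members and lists were chosen with earlier results of these data known. Named genes were the 10 members, pdx1, up to 4 genes of each matrix list with the smallest p and a mean CPM of at least 2, the genes most and least alike to the members' mean, and the defining markers; any other gene was picked with its values in view. The liver cell list and the sides by ddc were added after the data were seen. The floor of 3 counts was 0.156 to 0.184 CPM. No 2 libraries agreed within sampling noise (lowest chi-square per gene 16.8 over 66 pairs).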

Additional observations from a re-analysis of the deposited data

Results flagged for a closer look

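Among 29 groups of 9 pdx1+/- samples examined, 4 held a sample whose gap to its nearest neighbour exceeded the critical share of the range (0.493), and none of them was a level of the 10 matrix genes. Chance gives about 1 in 20 independent groups, but these groups share their 9 libraries. The liver cell list was also added after the data were seen. The number of groups found therefore cannot be set against that rate. The summed level of smooth muscle and pericyte markers was 522.9 TPM in heterozygous replicate 2. That of exocrine pancreas and intestine markers was 189.1 TPM in heterozygous replicate 8. In heterozygous replicate 4 the gonad markers summed to 23.01 TPM, inside the wild-type range of 21.6 to 26.0 TPM, and the liver cell markers to 2821 TPM.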

How the results depend on the processing

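No alternative called any of the 10 genes. Over 26 fits of the 10 fold changes, the one reported included, 218 alternative values kept their direction and 32 had the other sign, all in genes with log2 fold changes within 0.23 of 0; the cause was not tested. The number of all genes called was 62 with DESeq2, 3 on log2(TPM + 0.1), 3 with ddc as a covariate, 0 with the replicate block, and 1 to 4 with a sample left out (4 without heterozygous replicate 5, 2 without heterozygous replicate 2). No sign of pairing by replicate number was seen (same-number r of -0.22, -0.16 and 0.10), but 3 such values cannot decide it. With the replicate block the members' median was 0.02, with 0 called. That fit in effect compares only heterozygous replicates 1 to 3 with wild type, since the others have no wild-type sample of their number. The exact permutation p of pdx1 ran from 0.0182 to 0.109.

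The sign turned for col5a2a with upper quartile scaling (0.011), ddc (0.035), 1 surrogate variable (0.022), the replicate block (0.013) and without heterozygous replicates 4 and 8 (0.12). It turned for col1a1b (0.090 and 0.072) and col5a1 (0.061 and 0.046) with ddc and with 1 surrogate variable. With the block it turned for col5a1 (0.0038) and col1a2 (-0.16). It turned for dcn without scaling (-0.0067) and for mmp2 on log2(TPM + 1) (-0.021) and log2(TPM + 0.1) (-0.022). With a sample left out, log2 fold changes ran from -0.12 to 0.47 for col1a1a, -0.38 to 0.22 for col1a1b, -0.19 to 0.25 for col1a2, -0.37 to 0.18 for col5a1, -0.16 to 0.15 for col5a2a, -0.28 to 0.30 for dcn and -0.097 to 0.093 for mmp2. They ran from 2.29 to 4.57 for fn1a, 0.51 to 1.69 for lum and 0.38 to 0.91 for postnb. Without wild-type replicate 1, 10 of 10 were above 0 with a median of 0.28, and without replicate 2, 3 of 10 with a median of -0.14. Without replicate 3 the median was 0.16. With ddc as a covariate and with 1 surrogate variable, 10 of 10 were also above 0 and 0 were called. Their medians were 0.20 and 0.19, beside 0.01 for all genes in both fits. The median r of the 45 pairs stayed between 0.48 and 0.86 over all alternatives. With 3 wild-type samples, 0 calls do not show equal levels; lum (11 to 108 counts) and fn1a (0 to 929) were measured least precisely.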
